A study of Mus musculus with 6 samples.

Results

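The genes described here are those of the H/ACA small nucleolar RNAs (snoRNAs) that the array measured under a name of their own. A transcript cluster, the array's probe set for 1 transcription unit, was taken where the platform annotation gave it exactly 1 gene symbol and that symbol began with Snora and a digit. Snora62 and Snora75 were left out by the rule, rows with identical values were counted once, and the cluster with the highest mean was kept for each symbol. This gave 16 genes among 30142 genes with a symbol of their own and 65956 transcript clusters in all. Another 20 Snora symbols stood only in clusters that list several genes, mostly the snoRNA together with its host gene, and were not analysed here. The RNA came from snap-frozen kidney tissue of female Pkd1 miR transgenic mice, a model of polycystic kidney disease in which a transgene targets Pkd1, and both groups carried this transgene. Which promoter drives the transgene is not stated in the labels. Saline was injected in 3 mice (control), and 3 mice received metformin, a biguanide drug used in diabetes, by intraperitoneal injection (daily dose 150 mg per kg). Treatment covered postnatal days 35 to 63, and all mice were 63 days old at collection. The labels call the samples biological replicates, so p-values measure the spread between 3 kidneys in each group. In bulk kidney RNA, fewer cells of a type and less RNA per cell cannot be told apart.

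H/ACA snoRNAs are short nuclear RNAs that fold into hairpins joined by a hinge (the H box) and end in a tail that holds the letters ACA. Each binds the proteins dyskerin (Dkc1), Nop10, Nhp2 and Gar1, and most pair with ribosomal RNA to place a pseudouridine, the modified base that dyskerin makes from uridine. In mammals most are cut out of introns of a host gene, often one for a ribosomal protein or translation factor, so a host transcript and its snoRNA begin at the same promoter and then part ways at splicing. Probes for a snoRNA also lie in the unspliced host transcript, and the array cannot tell the mature snoRNA from it.

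All 16 genes lay within the span of a longer gene in the RefSeq gene table (assembly GRCm38.p6), on 12 chromosomes, and their listed lengths ran from 56 to 205 nucleotides. That table gives no strand, so a host here is a gene whose span holds the snoRNA. Other protein-coding genes were hosts of 8 members, ribosomal protein genes of 5 and noncoding genes of 4. Snora78 counts under both of the latter, since Rps2 and Snhg9 both span it. Snora73a and Snora73b, the paralogous U17 snoRNAs that act in cleavage of the ribosomal RNA precursor rather than in pseudouridylation, share the host Snhg3. Their sequences are close to each other, so signal can be shared between them.

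No snoRNA sequence was in the tables used here. The start sites of the hosts are shown instead for the 4 snoRNAs that rose. Whether a host and its snoRNA lie on the same strand was not checked. The host's start is thus not shown to be where transcription of the snoRNA begins. Each line has 51 bases, 25 on either side of the start that RefSeq lists (assembly GRCm38.p6), read 5′ to 3′ on the host's strand. The capitals mark the longest unbroken stretch of C and T, in any mix, because many genes of the translation machinery begin in such a stretch (the 5′ terminal oligopyrimidine tract). The stretch was sought anywhere in the 51 bases, so the capitals need not mark such a tract.
Eef1b2, host of Snora41, chr1:63176806-63176856, plus strand: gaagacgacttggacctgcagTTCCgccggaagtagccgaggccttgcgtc
Eif3a, host of Snora19, chr19:60790668-60790718, minus strand: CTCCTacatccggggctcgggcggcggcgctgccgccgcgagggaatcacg
Tpt1, host of Snora31, chr14:75845231-75845281, plus strand: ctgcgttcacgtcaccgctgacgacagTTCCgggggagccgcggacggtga
Zbed3, host of Snora47, chr13:95323580-95323630, plus strand: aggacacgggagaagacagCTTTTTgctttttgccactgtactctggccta
Snhg12, host of Snora16a, chr4:132308653-132308703, plus strand: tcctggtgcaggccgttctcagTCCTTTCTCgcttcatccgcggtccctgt
The stretch was 4 bases long at Eef1b2 and Tpt1, 5 at Eif3a and 6 at the start of Zbed3 shown. At Eif3a it began with the first base of the line, so 5 is a lower bound. A short stretch near a listed start does not show that a host lacks such a tract. Counted from the listed start, the marked stretch began at -4 at Eef1b2, 2 at Tpt1, -25 at Eif3a and -6 at Zbed3. Of equally long stretches only the first is marked. The lines of Eef1b2 and Zbed3 each hold a later stretch of the same length, which at Zbed3 begins with the base after the listed start. At none of these hosts did the marked stretch cover the listed start. RefSeq lists 3 starts for Zbed3, with stretches of 6, 2 and 6 bases. Snhg12, whose snoRNA did not pass the test, is shown as an example of a stretch of 9 bases across the listed start. A stretch of at least 4 bases was found in 84.8% of all 32851 windows of this length in the table, of at least 6 in 44.4% and of at least 9 in 13.5%. Among the other hosts with an entry the stretch was 2 bases at Kansl2, 5 at Snhg3 and Htr2c, 6 at Rpl23, Rps2 and Tcp1, 7 at Srcap and 9 at Rpl39 and Snhg9. The lengths at hosts of snoRNAs that rose (2 to 6) thus lay within the range at the others (2 to 9). The listed starts are annotations and were not measured here.

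In the metformin kidneys 4 of the 15 H/ACA snoRNA genes tested were higher and none was lower. They were Snora47, Snora41, Snora31 and Snora19, with rises of 1.72-fold to 2.98-fold. The remaining 11 did not pass, among them Snora73a and Snora73b. The test was limma's moderated test over 22087 genes, called at a Benjamini-Hochberg adjusted p under 0.05. Over all genes tested it called 6.71% higher and 9.08% lower, against 26.7% of the members higher. At an unadjusted p under 0.05 and at least 1.5-fold, 4 of the 15 were higher (5.26% of all genes) and none was lower (6.64% of all genes).

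Snora47, spanned by Zbed3 on chromosome 13, had log2 values of 11.55, 11.88 and 11.46 in saline replicates 1 to 3. With metformin the values were 13.41, 13.21 and 13.01. Each metformin array lay more than 1 log2 unit above each saline array. The group means were 11.63 ± 0.22 and 13.21 ± 0.20 (SD, n = 3 per group), a rise of 2.98-fold or 1.58 log2 units (95% interval 1.23 to 1.93; limma adjusted p = 0.00708). It was the sole member past a 2-fold change at the adjusted threshold, which 0.675% of all genes passed in the higher direction.

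Snora41, spanned by Eef1b2 on chromosome 1, read 7.22, 6.90 and 6.92 in saline and 8.25, 7.82 and 7.66 with metformin. The groups did not overlap, and metformin replicate 1 was the highest array. The rise was 0.90 ± 0.17 log2 units (SE), or 1.86-fold (limma adjusted p = 0.0175). Without metformin replicate 2 the change was 0.94 with an adjusted p of 0.0521, so the call ended there.

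Snora31, spanned by Tpt1 on chromosome 14, read 7.56, 8.15 and 7.45 in saline and 8.50, 8.86 and 8.44 with metformin. Saline replicate 2 stood well above the other saline arrays and came closest to the metformin group, which it did not reach. The rise was 0.88 ± 0.20 log2 units (SE), or 1.84-fold (limma adjusted p = 0.0297). Of the 4 calls this one ended under the most settings. It ended without each of saline replicates 1 and 3 and metformin replicates 1, 2 and 3 (changes of 0.80, 0.75, 0.93, 0.75 and 0.96, adjusted p = 0.0536 to 0.109), and after median-centring (0.79, adjusted p = 0.0527). Without saline replicate 2 the change was 1.10, and the call held.

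Snora19, spanned by Eif3a on chromosome 19, read 7.69, 7.74 and 7.60 in saline and 8.37, 8.67 and 8.36 with metformin. Its saline arrays were tight, with an SD of 0.072, and metformin replicate 2 was the highest array. The rise was 0.79 ± 0.11 log2 units (SE), or 1.72-fold (limma adjusted p = 0.00904). Its 6 values are shared exactly with 1 other cluster, which lists Snora19 together with the microRNA gene Mir3084. RefSeq places Snora19 inside Mir3084-2, so the array cannot separate the snoRNA from that precursor.

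**Figure D1:**
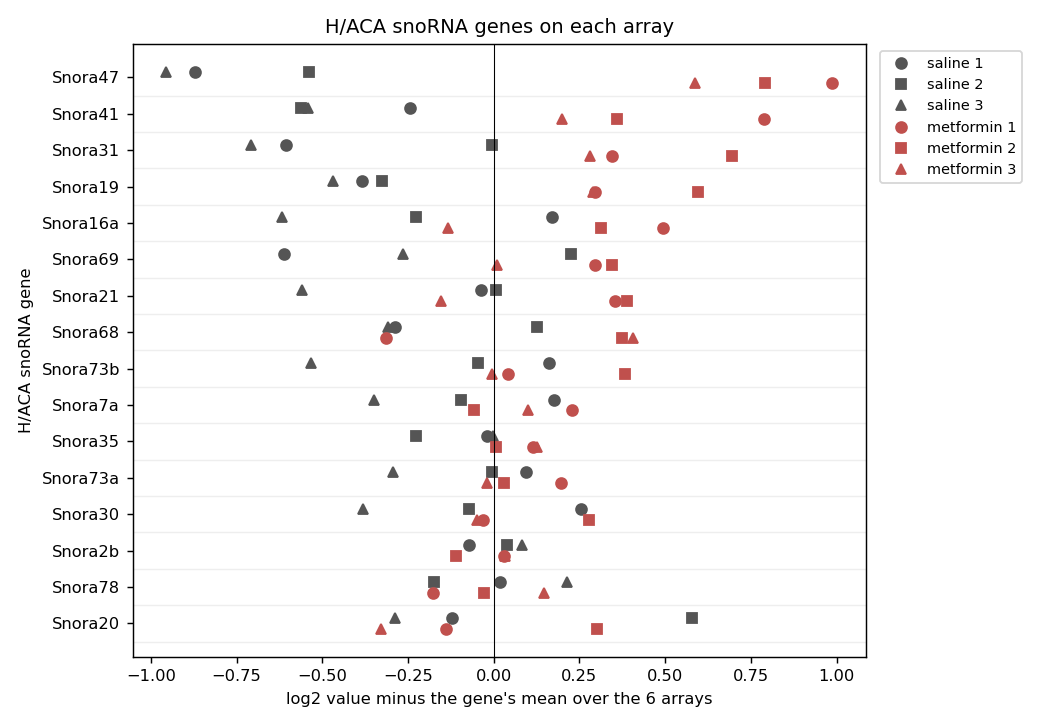
Each point is 1 array; the x axis gives its log2 value minus the gene's mean over the 6 arrays, with saline in grey and metformin in red and a marker for each replicate number, for all 16 H/ACA snoRNA genes ordered by their difference between groups. The groups stand apart for Snora47, Snora41, Snora31 and Snora19 and, at a level under the filter, for Snora35, and saline replicate 3 is often the leftmost point.

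Among members from noncoding hosts none of 4 passed, where 15.8% of all genes were called in either direction. Snora16a, spanned by Snhg12, read 14.84, 14.45 and 14.06 in saline and 15.17, 14.99 and 14.54 with metformin. Saline replicate 1 lay above metformin replicate 3, so the groups overlapped. Its change was 0.45 ± 0.23 log2 units (SE; limma adjusted p = 0.226). In a fit that adds the replicate number as a block term (the replicate-block fit), its adjusted p was 0.0295. Snora73b of Snhg3 read 9.68, 9.47 and 8.98 in saline and 9.56, 9.90 and 9.51 with metformin (change 0.28, 95% interval -0.17 to 0.73). A further cluster for Snora73b, which the platform marks as unmapped, differed by 0.22. Snora73a, also measured by a cluster marked as unmapped, had a change of 0.14 (95% interval -0.16 to 0.43). These intervals still hold rises of up to about 1.66-fold for Snora73b and 1.35-fold for Snora73a.

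Among members from ribosomal protein hosts none of 5 passed either, and their median change was 0.31, as over all tested members. With 4 or 5 genes in a class, such counts cannot tell the host classes apart. No difference between host classes was tested. Snora69 of Rpl39 read 9.53, 10.36 and 9.87 in saline and 10.43, 10.48 and 10.15 with metformin. Its saline replicate 2 reached the metformin range, while the other saline arrays lay below it. The change was 0.43 ± 0.21 (SE; limma adjusted p = 0.203), and without saline replicate 2 it was 0.65 (adjusted p = 0.0337). Snora21 of Rpl23 read 12.16, 12.20 and 11.64 in saline and 12.55, 12.58 and 12.04 with metformin, with replicate 3 the lowest in both groups. Its change was 0.39 ± 0.20 (SE; limma adjusted p = 0.230), and its adjusted p in the replicate-block fit was 0.0320. Snora7a of Rpl32 had a change of 0.18 and Snora78 of -0.04, both with overlapping groups.

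The 3 members with a change below 0 were Snora20 (-0.11), Snora78 and Snora2b (-0.03). Snora20, spanned by the chaperonin gene Tcp1, was highest in saline replicate 2 (7.52) and metformin replicate 2 (7.24) and between 6.61 and 6.82 on the other arrays. Its interval was the widest among the members, from -0.70 to 0.47. Snora2b, spanned by Kansl2, was the most even, between 7.46 and 7.65 on all 6 arrays, with an interval of -0.25 to 0.19. Snora30, spanned by Srcap, had a change of 0.13 (95% interval -0.28 to 0.54). Snora68 split by array, with metformin replicate 1 (7.23) beside saline replicates 1 (7.26) and 3 (7.24), and metformin replicates 2 (7.92) and 3 (7.95) above saline replicate 2 (7.67). Its change was 0.31 (95% interval -0.19 to 0.82).

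Snora35 was the 1 member that did not pass the filter on low values, which left out the 33.3% of clusters with a mean up to 4.03. It lies in Htr2c, a serotonin receptor gene, and is known as a brain snoRNA. Its values were 3.57, 3.37 and 3.59 in saline and 3.71, 3.60 and 3.72 with metformin, so the groups did not overlap, at a level under the filter and with a difference of 0.17. It was not tested in the fit.

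**Figure D2:**
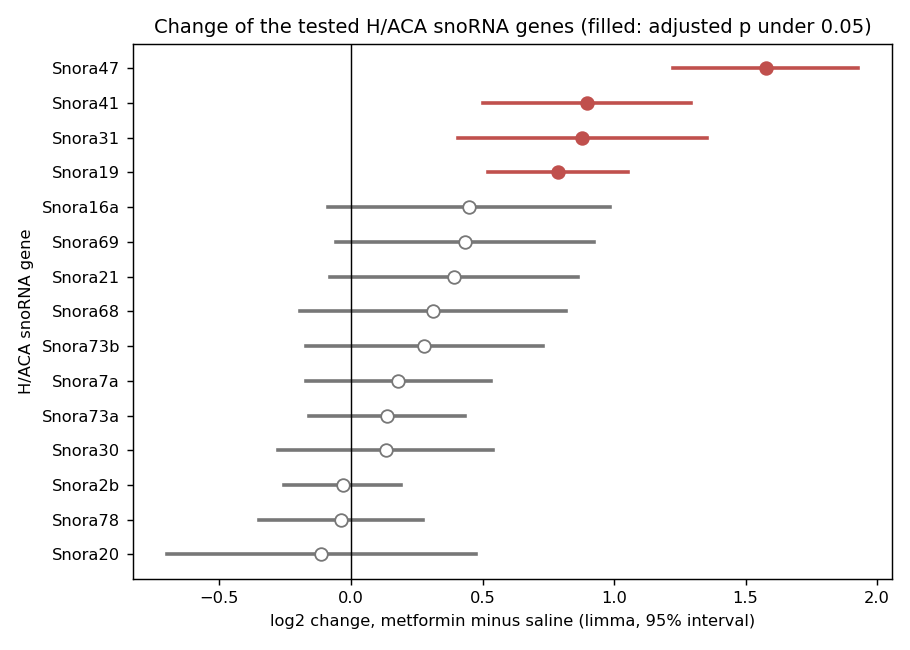
The x axis gives the log2 change from saline to metformin with its 95% interval from limma for the 15 H/ACA snoRNA genes tested, and filled points passed an adjusted p of 0.05. The 4 filled points lie between 0.79 and 1.58, and the intervals of the other 11 genes include 0.

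Over the 15 tested members the median change was 0.31 log2 units, beside 0.02 over all genes. A change above 0 was seen in 12 of the 15, against 52.9% of all genes. The like classes leaned the same way, with 35 of 43 C/D box snoRNA genes, 4 of 5 small Cajal body RNA genes and 507 of 571 other snoRNA genes above 0. The other snoRNA genes read at a lower level than the members, as given below. The groups did not overlap, with metformin higher, in 4 of the 15 and in 17.8% of all genes. The same held for 4 of 43 C/D box snoRNA genes, 1 of 5 small Cajal body RNA genes and 184 of 571 other snoRNA genes. For the reverse direction the counts were none of the 15 members and 19.4% of all genes. The mean deviation of the members from their own means was -0.16, -0.07 and -0.40 on saline replicates 1 to 3 and 0.23, 0.31 and 0.09 on metformin replicates 1 to 3. Saline replicate 3 was the lowest array for 9 of the 15 members, and without it the median change was 0.21. The members' level also moved with the scaling. The upper quartile of all clusters was 7.01 to 7.12 on saline and 7.21 to 7.34 on metformin arrays. With median-centring the members' median was 0.22 while that of all genes moved to -0.07, and with quantile normalization these were 0.18 and -0.10. Snora47, Snora41 and Snora19 kept their calls under both, with changes of 1.49, 0.81 and 0.70 after median-centring and 1.57, 0.69 and 0.60 after quantile normalization. Higher calls made up 42.5% of all calls in the deposited values, 25.2% once arrays were median-centred and 20.7% once they were quantile-normalized. When every cluster past the filter was tested on the deposited values, 71.4% of calls were higher. There 12.6% of 43971 clusters were called higher, and their median change was 0.0944. The median of the tested genes was 6.90 to 6.98 on saline and 6.90 to 6.97 on metformin arrays.

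Other guide RNAs were read from the same fit. Over all genes it called 6.71% higher and 9.08% lower. C/D box snoRNAs, which guide methylation of ribosomal RNA, rose in 2 of 43 genes, fell in none, and had a median of 0.18. The 2 were Snord14e (1.48) and Snord118, the U8 snoRNA that acts in ribosomal RNA processing (1.06). The mean deviations of the C/D genes were -0.16, 0.15 and -0.31 on saline replicates 1 to 3. On metformin replicates 1 to 3 they were -0.03, 0.37 and -0.02, so these overlapped between the groups. The replicate-block fit called 4 C/D genes higher, beside 8.8% of all genes. Of 5 small Cajal body RNAs, which guide modification of spliceosomal RNAs, Scarna10 rose by 0.94 (limma adjusted p = 0.0304), and with the block 2 were called. The telomerase RNA Terc, which carries an H/ACA domain bound by the same proteins, had a change of 0.11 ± 0.14 (SE; limma adjusted p = 0.624). Another 571 genes of the RefSeq class snoRNA had 81 called higher, 1 called lower and a median of 0.24. Their mean log2 level was 5.81 to 6.16 per array, against 8.87 to 9.58 for the H/ACA members. The part of this lower level in their counts was not tested. The differences between these classes were not tested.

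Of the 16 host genes 9 had a tested cluster of their own. Eif3a, the scaffold subunit of translation initiation factor eIF3, rose by 0.41 ± 0.09 log2 units (SE; limma adjusted p = 0.0241; 0.23 and an adjusted p of 0.103 after quantile normalization). Srcap, a chromatin remodelling ATPase, rose by 0.75 ± 0.15 (SE; limma adjusted p = 0.0214). The other 7 did not pass. For Snora47, its host Zbed3, a regulator of Wnt signalling, had a change of -0.09 (95% interval -0.36 to 0.17), against 1.58 for the snoRNA. Zbed3 read 9.38, 9.22 and 9.12 in saline and 9.29, 9.10 and 9.05 with metformin, so the groups overlapped where those of Snora47 stood apart. Eef1b2, an elongation factor subunit, had a change of 0.03 (95% interval -0.26 to 0.32) against 0.90 for Snora41. Tpt1, the translationally controlled tumour protein, had 0.17 (95% interval -0.07 to 0.41) against 0.88 for Snora31. The Tpt1 cluster had group means of 7.34 in saline and 7.52 with metformin, beside 14.0 and 14.4 for Eif3a. Whether it reads the main Tpt1 transcript was not checked. The intervals of snoRNA and host lay apart for Snora47 and Snora41, while Tpt1's upper bound of 0.41 met the lower bound of Snora31 (0.41).

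In 5 further pairs the snoRNA did not pass, and of their hosts Srcap alone did. Srcap read 10.02, 10.63 and 10.35 in saline and 11.05, 11.11 and 11.10 with metformin, while Snora30 had 10.41, 10.08 and 9.77 and then 10.12, 10.43 and 10.10. Kansl2, a subunit of a histone acetyltransferase complex, had a change of 0.36 (adjusted p = 0.0849) beside Snora2b at -0.03. Tcp1 had -0.35 (adjusted p = 0.0555) beside Snora20 at -0.11. Rpl39 had 0.04 beside Snora69 at 0.43, and Snhg9 had 0.28 beside Snora78 at -0.04. The level of Snhg9 was low, with group means of 4.87 in saline and 5.15 with metformin. The difference between a snoRNA and its host was not tested, and the probes of both may read intron sequence. Whether both lie on the same strand was not checked. Leaving out saline replicate 1 or any of metformin replicates 1, 2 and 3 left none of the hosts called, and leaving out saline replicate 3 left 1.

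**Figure D3:**
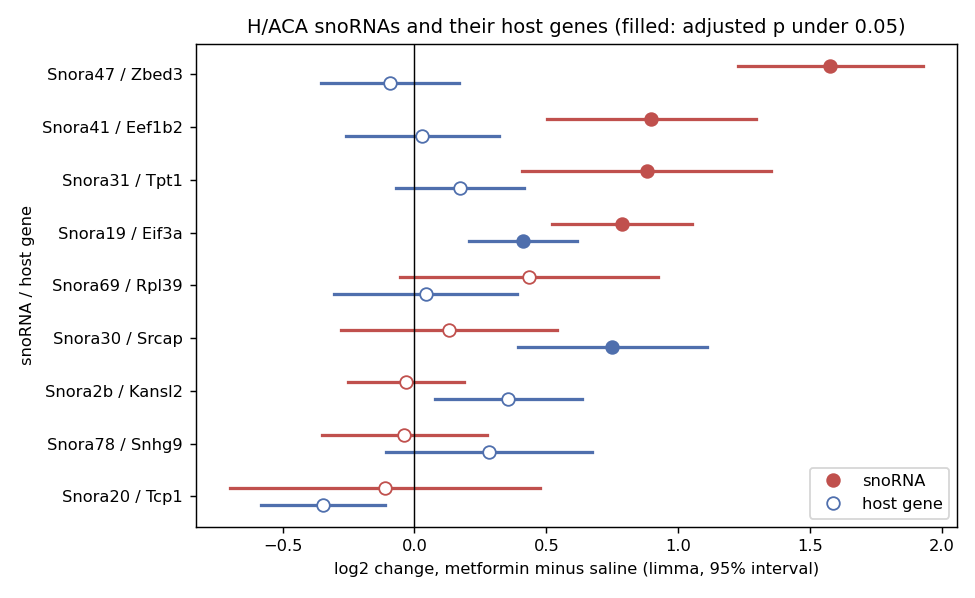
For the 9 pairs of a tested H/ACA snoRNA (red) and a tested host gene (blue), the x axis gives the log2 change from saline to metformin with its 95% interval from limma, and filled points passed an adjusted p of 0.05. Snora47, Snora41 and Snora31 lie to the right of hosts whose intervals include 0, Snora19 and Eif3a are both filled, and Srcap is filled where Snora30 is open.

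None of the 4 core proteins of the H/ACA particle passed. Dyskerin, the pseudouridine synthase itself, had 8.98 ± 0.25 in saline and 8.53 ± 0.07 with metformin (SD, n = 3 per group), a change of -0.45 (limma adjusted p = 0.0604). The groups did not overlap, and Dkc1 was called lower in the replicate-block fit (adjusted p = 0.0371), after median-centring (0.0325) and after quantile normalization (0.0280). It was also called with array weights (adjusted p = 0.0310) and without saline replicate 2 (0.0311). It was not called with any other array left out (adjusted p = 0.101 to 0.155) or with trend and robust options (0.0648). Nop10 had a change of -0.02, Nhp2 of 0.04 and Gar1 of 0.12. Among assembly and localization factors 9 of 10 were tested and none passed. Naf1, an assembly factor that Gar1 replaces in the mature particle, had -0.36 (adjusted p = 0.0621; 0.0365 after median-centring and 0.0477 after quantile normalization), Smn1 0.27 and Wrap53, which brings RNAs to Cajal bodies, -0.20. Naf1 was not called with any array left out (adjusted p = 0.0712 to 0.168) or with the block (0.0779). Of 9 genes for release and trimming of snoRNAs, Tent4b, a poly(A) polymerase that tags them for trimming, rose by 0.31 (adjusted p = 0.0493). That call ended with each array left out, with median-centring (0.22, adjusted p = 0.124) and with the block (adjusted p = 0.0522). The RNA helicase Mtrex had -0.45 (adjusted p = 0.0745; 0.0374 with the block and 0.0432 after median-centring) and the nuclear exosome nuclease Exosc10 -0.23 (adjusted p = 0.200; 0.0349 after quantile normalization). Mtrex was called without saline replicate 2 (adjusted p = 0.0487) but not with any other array left out (0.0954 to 0.205). Exosc10 was called in no other setting.

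Of the 12 stand-alone pseudouridine synthases, which act without a guide RNA, none passed and the median was -0.02. The lowest were Rpusd3 (-0.35), Rpusd2 (-0.33) and Rpusd1 (-0.27). They were called lower after quantile normalization (adjusted p = 0.0446, 0.0153 and 0.0157) and in no other setting. Of the C/D core proteins 2 of 4 were tested. Fibrillarin (Fbl), the methyltransferase, rose by 0.41 (adjusted p = 0.0417; 0.32 and an adjusted p of 0.103 after median-centring, and 0.31 and 0.0617 after quantile normalization). Its call also ended with each array left out in turn (adjusted p = 0.0615 to 0.123), other than metformin replicate 3. Nop58 had 0.46 (adjusted p = 0.278) and was called with the block (0.0390) and in no other setting. For ribosomal RNA transcription 15 of 16 genes were tested, with none higher, 2 lower and a median of -0.21. The 2 were RNA polymerase I subunits, Polr1h (listed as Znrd1) at -0.55 (adjusted p = 0.0304) and Polr1e at -0.35 (adjusted p = 0.0439, and 0.0585 with the block). Both calls ended without saline replicate 1 (adjusted p = 0.106 and 0.138) and without each of the metformin arrays. The Polr1h call also ended without saline replicate 2 (adjusted p = 0.0548). That of Polr1e also ended without saline replicate 3 (adjusted p = 0.109) and with every cluster tested (0.0568). The terminator protein Ttf1 had 0.41 (adjusted p = 0.0603). It was called higher with array weights (adjusted p = 0.0468) and without saline replicate 2 (0.0491), and in no other setting. Over these 6 lists 4 genes were called, 14 after quantile normalization, and between none and 4 with 1 array left out. Over all genes tested 15.8% were called in either direction. After quantile normalization 993 of 22089 genes were called higher and 3806 lower.

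Kidney markers were present, with a mean log2 level of 14.1 to 15.7 per array for 12 proximal tubule genes. Markers of several cell types moved with the groups. Of the 12 proximal tubule genes 5 were called lower (9.08% of all genes), and all 12 lay lower without overlap (19.4% of all genes). Their summed log2 level was 182 to 188 on saline and 169 to 180 on metformin arrays. Of 7 other nephron genes and 5 lymphocyte genes tested none passed (median changes of -0.07 and 0.10). Of 7 proliferation genes tested 6 were called higher (6.71% of all genes). Their sums were 45.3 to 49.4 on saline and 52.1 to 54.7 on metformin arrays. Of 10 adipocyte genes 2 were called lower and 7 lay lower without overlap (sums of 59.4 to 83.4 and 53.5 to 54.6). Of 11 macrophage genes 1 was called higher (6.71% of all genes) and 3 lay higher without overlap (17.8% of all genes). Their sums were 82.5 to 95.8 on saline and 93.3 to 98.4 on metformin arrays. Both erythroid genes tested fell, Alas2 by 0.53 and Slc4a1 by 0.86 on the log2 scale (sums of 13.9 to 14.4 and 12.4 to 13.2). Their part in the snoRNA values was not tested. Pkd1, the target of the transgene in both groups, read 6.70, 7.16 and 6.67 in saline and 7.57, 7.58 and 7.34 with metformin (change 0.65, limma adjusted p = 0.0317; 0.56 and an adjusted p of 0.0592 after median-centring). The Pkd1 call also ended without saline replicates 1 (adjusted p = 0.113) or 3 (0.0768) and without metformin replicates 1 (0.0988) or 2 (0.0983).

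**Figure D4:**
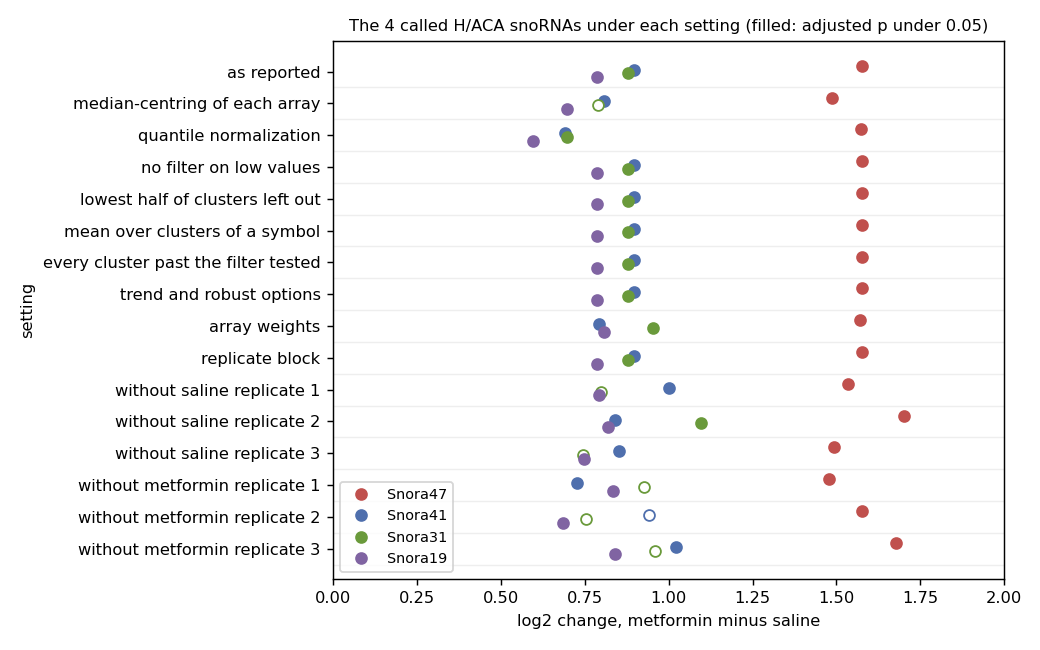
The x axis gives the log2 change from saline to metformin of the 4 called H/ACA snoRNAs under each setting, and filled points passed an adjusted p of 0.05. Snora47 and Snora19 are filled in each of the 15 alternatives, Snora41 is open without metformin replicate 2, and Snora31 is open in 6 of them.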

How the data were processed

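Per the submitters' processing notes, the authors used RMA and version 4.0 of Transcriptome Analysis Console, and each deposited value is a log2 signal for 1 transcript cluster on 1 array. The genome build was not given in the sources used here. Biotin labelling followed the WT PLUS reagent protocol, per the labels' protocols. Values ran from 1.94 to 19.9, and with 3 arrays per group their number limits the precision.

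Clusters with 1 platform symbol (30604 of 65956) were renamed through RefSeq Entrez numbers. After the lowest 33.3% of clusters by mean were left out, 1 cluster per gene was tested (22087 genes) with limma 3.58.1 in R 4.3.3, without covariates. The script was tested on simulated data. Changes are metformin minus saline. Hosts were assigned by span, since the gene table has no strand. Named genes were the members called, the 5 largest changes not called, Snora73a, Snora73b, Snora35, Terc, Pkd1, core proteins, hosts and up to 3 genes per list with the smallest p; further members are named as members. The members and lists were chosen with earlier results of these data known.

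Deviations of same-numbered samples correlated at 0.118, 0.145 and 0.541 across genes, while saline 2 with metformin 1 reached 0.299. The labels do not say that the numbers pair the samples, and the reported fit treated the samples as independent. A fit with the replicate number as a block was an alternative. Other alternatives were scaling, filters, cluster choice, trend and robust options, array weights and leaving out each array.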

Additional observations from a re-analysis of the deposited data

How the results depend on the processing

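The count of H/ACA snoRNA genes called higher was 4 as reported (6.71% of all genes), 6 with the replicate number as a block (8.8%), 3 after median-centring (4.13%), 1 at 2-fold (0.675%), and 2 to 5 with 1 array left out (1.59% to 8.28%). The lowest, 2, came without metformin replicate 2 (2.65%). With every cluster past the filter tested the count was 4, beside 12.6% of those clusters. The median change of the members stayed between 0.18 and 0.45 over all settings. Members without overlap numbered 4 to 8 with 1 array left out, with 8 without saline replicate 1 (21% of all genes) and 7 without metformin replicate 3 (24.6%); 2 arrays overlap less often than 3 by construction. Hosts called ranged from 0 to 3 there. Genes called in the fixed lists were 14 after quantile normalization, 2 with every cluster tested and 0 to 4 with 1 array left out. Among all genes, quantile normalization gave 993 higher and 3806 lower calls of 22089. With 1 array left out, calls among all genes were fewest without saline replicate 1 (352 higher and 490 lower). They were most frequent without saline replicate 2 (1828 and 2133). With every cluster tested, 5553 clusters were called higher and 2221 lower. C/D box genes called higher were 1 after median-centring, 1 after quantile normalization, 4 with the block and 0 to 5 with 1 array left out. Small Cajal body RNAs called higher were 0 after median-centring, 2 with the block and 0 to 1 with 1 array left out. The block ended the calls of Tent4b and Polr1e, and gave calls to Snora16a, Snora21, Dkc1, Mtrex and Nop58. The cause of these shifts was not tested. With 3 arrays per group, 11 members had intervals that include 0, which does not show that they were unaltered.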
